A study of Mus musculus with 27 samples.

Results

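The cells described here came from 2 cultures of mouse hair follicle stem cells (HFSCs) that differed by an inhibitor of the retinoic acid receptor (RARi). Both cultures held all-trans retinoic acid (atRA) with a protein kinase C inhibitor (PKCi), and both were given R-spondin (Rspo) with the bone morphogenetic proteins BMP2 and BMP4 (Rspo+BMP2/4). One of them was also given RARi. A cell was kept when it had at least 500 genes, at least 1000 unique molecular identifiers (UMIs), under 10% mitochondrial UMIs, and at least 20 hashtag counts of which 70% or more came from 1 hashtag. These limits left 169 cells of the 657 barcodes in both cultured pools, against 342 cells of any culture. The study plots more cultured cells than these pools have barcodes, so the cell numbers describe the files analysed here. The Rspo+BMP2/4 culture kept 102 cells of mouse 1 and 35 of mouse 2, and the RARi culture kept 7 and 25.

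Retinoic acid enters the nucleus and binds retinoic acid receptors (RARs), which pair with retinoid X receptors (RXRs) on direct repeats of a short half-site in DNA. Liganded RAR turns on the enzymes that degrade or store retinoids, so that these genes serve as a readout of the pathway. In skin, retinoids restrain the cornifying program of the epidermis and permit hair follicle fates, while R-spondin raises canonical WNT signaling and BMP drives the hair shaft and inner root sheath (IRS) lineages.

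Single cells were profiled with the 10x Genomics 3' assay from 3D cultures of 2 wild-type mice. The HFSCs had been sorted for CD34 from back skin at postnatal day 32 and passaged before the cultures were set up. The cultures of 1 mouse were tagged with antibody hashtags, pooled and run as 1 library, so that each pool also held B-27, Rspo and BMP2/4 cultures. B-27 is a serum-free supplement, and the B-27 culture held neither atRA nor PKCi, whereas the Rspo and the BMP2/4 cultures held both. The RARi compound used in the cultures was not named in the labels. Each mouse gave 1 culture line, each culture is 1 sum per mouse, and cells of 1 sum are not replicates.

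The hashtags are the sequences that carry the label of each cell, and they were read from the deposited table of tags. The whole barcode identifies the culture, and it is given without capitals.
Rspo+BMP2/4: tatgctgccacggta
Rspo+BMP2/4+RARi: gagtctgccagtatc
No cell barcode was shared by the 2 pools. Median hashtag share was 96.8% in Rspo+BMP2/4 cells of mouse 2 and 96.6% and 96.3% in RARi cells of mice 1 and 2, but 82.5% in Rspo+BMP2/4 cells of mouse 1. In that sum 20 of 102 cells passed a limit of 90%.

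The 4 sums held 2834736 and 1101070 UMIs in Rspo+BMP2/4 and 139069 and 742905 UMIs with RARi, for mice 1 and 2. Single cells had between 1841 and 95640 UMIs. The mitochondrial limit removed 92 of 194 and 41 of 76 barcodes led by the Rspo+BMP2/4 hashtag, and 10 of 17 and 24 of 49 led by the RARi hashtag. The member closest below that limit had 9.72% mitochondrial UMIs and the barcode closest above it 10.02%. The lowest hashtag share kept was 71.0%. The cells carried epithelial keratins, with Krt14 at 13210 and 10260 CPM (UMIs scaled to library totals by TMM) in Rspo+BMP2/4 and 6480 and 13390 with RARi. Of 6 bulge HFSC markers, Krt15 was well detected, while Cd34 and Postn had 0 UMIs and Lhx2, Nfatc1 and Fgf18 had at most 12 in any sum. The marker used for the sort was thus not detected in either culture at this depth. Of 7 fibroblast markers 6 were at 0, and only Pdgfra was seen, with 0 to 4 UMIs per sum. Of 4 melanocyte markers Mitf, which keratinocytes can also express, had 59, 27, 11 and 18 UMIs in the 4 sums. Of 4 immune markers only Cd74 was seen, with at most 10 UMIs. Fewer cells of a type and less RNA per cell cannot be told apart in these sums.

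The first question was which genes differed with RARi. At adjusted p under 0.01 and a log2 fold change beyond 1 in either direction, edgeR's quasi-likelihood test called 0 of 6419 genes higher (0%) and 0 lower (0%). At an unadjusted p under 0.05 the same test counted 449 of the 6419 genes. With no effect at all, a share of about 0.05 of the genes would fall under that limit. By the rule of adjusted p and fold change, DESeq2 called 9 genes higher and 3 lower. These overlap only in part with the 12 called below, since Saa3, Antxr1 and Padi1 were not among them. With the mouse as a replicate block, edgeR called 4 higher and 1 lower. At adjusted p under 0.05 with no limit on fold change, 9 genes were higher with RARi (0.14%) and 3 were lower (0.0467%). The genes below come from those 12, from the genes next in p, and from fixed lists.

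The 9 genes that were higher included parts of the epidermal barrier and of cell adhesion. Abca12, the transporter that loads barrier lipids into lamellar granules, was at 29.0 and 28.7 CPM in Rspo+BMP2/4 and 93.1 and 110.4 CPM with RARi. Its log2 fold change was 1.84 ± 0.38 (SE, 2 mice per culture, edgeR adjusted p = 0.0486). Dsg1b encodes a desmoglein, a desmosomal cadherin of differentiating epidermis. Its level was 5.09 and 5.39 CPM without and 31.0 and 38.2 CPM with the inhibitor. Its log2 fold change was 2.77 ± 0.56 (edgeR adjusted p = 0.0486). Both genes separated the cultures in both mice.

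Cpeb2, a regulator of mRNA translation, was at 48.2 and 66.4 CPM against 242 and 262 CPM, a log2 fold change of 2.16 ± 0.38 (edgeR adjusted p = 0.0180). In the RARi culture its level was close in both mice, but 1 cell of each sum gave 18 of 39 UMIs in mouse 1 and 88 of 192 in mouse 2. Chl1, a neural adhesion molecule of the L1 family, was at 18.01 and 8.08 CPM against 174 and 69.5 CPM. It had the lowest p of all genes, with a log2 fold change of 2.92 ± 0.46 (edgeR adjusted p = 0.0160).

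Antxr1, Plxdc2, Gm15987 and Saa3 were also higher. Antxr1, a cell surface receptor that binds collagen, was at 20.0 and 14.4 CPM against 143 and 66.8 CPM. Plxdc2, a transmembrane protein, was at 40.3 and 35.0 CPM against 248 and 89.9 CPM. Gm15987, annotated as an antisense RNA, had 5 and 0 UMIs in Rspo+BMP2/4 and 13 and 15 UMIs with RARi. Saa3, an acute phase protein made by inflamed epithelium, was at 16.1 and 16.2 CPM against 18.6 and 529 CPM. In Saa3 the RARi sum of mouse 1 held only 3 UMIs, so its log2 fold change of 4.23 ± 0.87 came from mouse 2. Without the RARi sum of mouse 2 that value was 0.13, and DESeq2 gave Saa3 an adjusted p = 0.389.

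The 3 genes that were lower were S100a7a, Padi1 and Glis3. Glis3, a zinc finger transcription factor, was at 421 and 470 CPM in Rspo+BMP2/4 and 49.7 and 147 CPM with RARi. Its log2 fold change was -2.03 ± 0.42 (edgeR adjusted p = 0.0486). Padi1 encodes a peptidylarginine deiminase, an enzyme that citrullinates keratins and filament proteins. It was at 74.0 and 68.2 CPM against 24.8 and 15.0 CPM, a log2 fold change of -2.04 ± 0.42 (edgeR adjusted p = 0.0486). With the replicate block, the adjusted p of Padi1 and of Abca12 was 0.0730 in each. Padi1 passed in only 2 of 13 alternatives and had an adjusted p of 0.220 with DESeq2 and 0.0573 with RLE size factors (edgeR). S100a7a, a psoriasin of stressed epidermis, was at 81.0 and 107 CPM against 0 and 9.54 CPM. It had 0 UMIs in the 7 RARi cells of mouse 1 and 7 UMIs, 1 each in 7 of 25 cells, in mouse 2.

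Sox9, Nupr1 and Cnn3 were among the next genes and did not pass the test. Sox9, the transcription factor that maintains the outer root sheath and bulge, was at 212 and 172 CPM in Rspo+BMP2/4 and 55.9 and 60.0 CPM with RARi. The log2 difference was -1.71 ± 0.40 (edgeR adjusted p = 0.0898), and over the alternatives the adjusted p ranged from 0.0259 with DESeq2 to 0.959. Nupr1, a stress-induced chromatin protein, was at 1052 and 1063 CPM against 168 and 283 CPM (edgeR adjusted p = 0.0716). Cnn3, an actin-binding calponin, was at 123 and 123 CPM against 12.4 and 35.4 CPM (edgeR adjusted p = 0.0604). In all 3 genes the 2 RARi sums lay below both sums of the other culture. For Nupr1 and Cnn3 this was a condition of their choice and not a result. Of all genes tested, 20.5% lay without overlap on the higher side and 20.8% on the lower side.

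In the reference mouse annotation (GENCODE M21, GRCm38) positions are as follows for genes that the results turn on. Abca12 spans chr1:71242276-71414910 on the minus strand and Glis3 chr19:28258851-28680077 on the minus strand. Padi1 spans chr4:140812983-140845778 on the minus strand and Sox9 chr11:112782224-112787760 on the plus strand. Gm15987 spans chr6:128951204-128975029 on the minus strand, and since reads of an antisense gene can come from its partner, its level is uncertain.

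**Figure D1:**
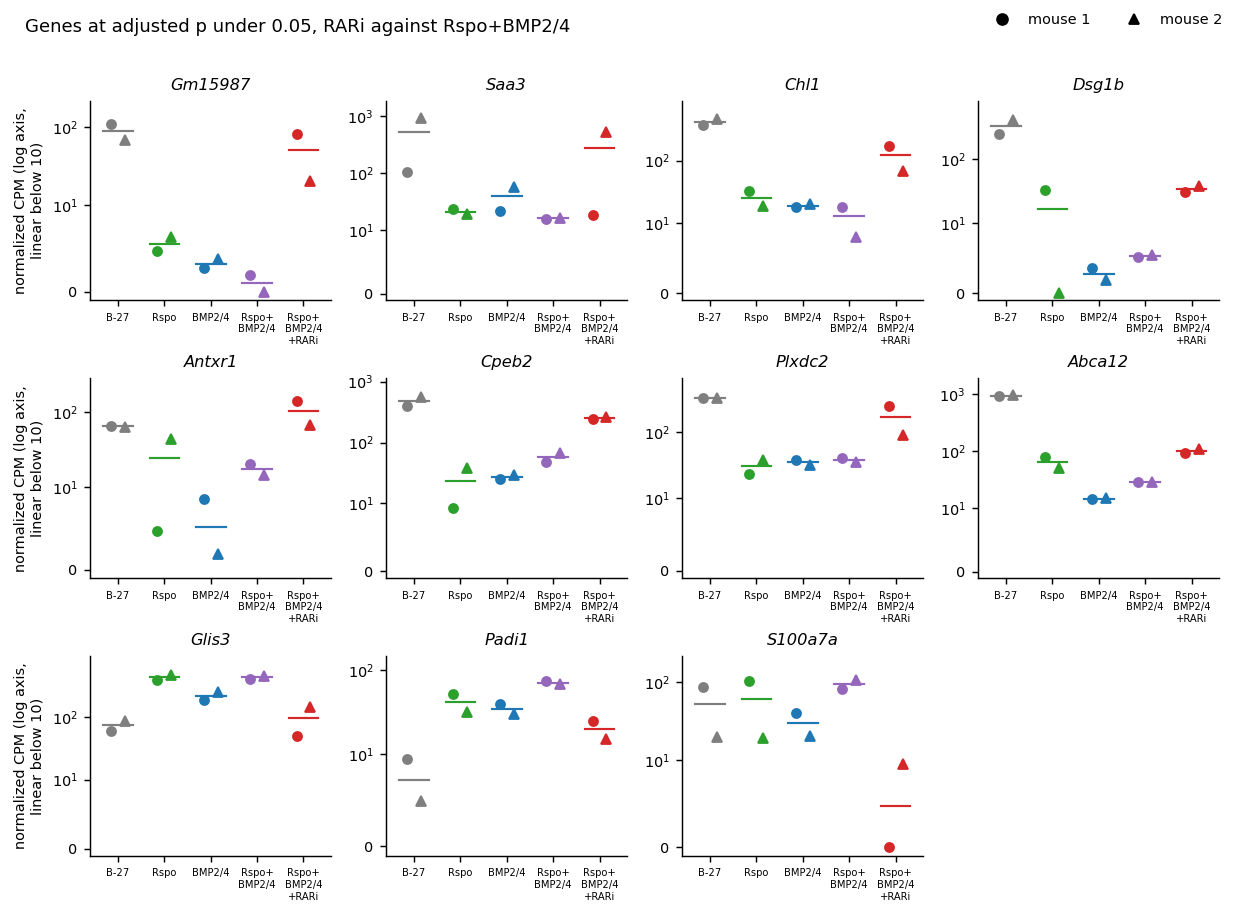
Normalized CPM (log axis, linear below 10) of 11 genes at adjusted p under 0.05, in 5 cultures of mouse 1 (circles) and mouse 2 (triangles), with the mean of the 2 mice as a line. The 2 RARi sums lie above both Rspo+BMP2/4 sums in 8 panels and below them in 3, and in Saa3 the RARi sum of mouse 1 lies just above, at 18.6 against 16.2 CPM.

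The UMIs behind these sums were not spread evenly over cells. In each RARi sum, 1 cell held the most UMIs of most of the 9 higher genes, 7 of 9 in mouse 1 and 8 of 9 in mouse 2. That cell had 31923 UMIs in mouse 1, which was 22.95% of its sum, and 58082 UMIs in mouse 2, or 7.82%. Its hashtag share was 96.2% and 97.4%. For Plxdc2 this cell gave 38 of 40 UMIs in mouse 1 and 37 of 66 in mouse 2. For Abca12 it gave 12 of 15 and 48 of 81 UMIs, and for Dsg1b 4 of 5 and 23 of 28 UMIs. For Gm15987 it gave all 13 UMIs in mouse 1 and 12 of 15 in mouse 2. Most UMIs of Saa3 in mouse 2, 74.7% of 388, came from another single cell.

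Without the leading cell of each of the 4 sums, an alternative chosen after seeing the data, edgeR called 0 genes in either direction at adjusted p under 0.05. Under this alternative Saa3, Chl1 and Antxr1 had log2 fold changes of 4.10, 1.85 and 1.77. Plxdc2 went to 0.03, Dsg1b to 0.78 and Abca12 to 0.84. Gm15987 went from 4.74 to 1.39 and Cpeb2 from 2.16 to 1.5. The lower genes moved little, with -1.95 for Glis3, -1.80 for Padi1 and -3.66 for S100a7a.

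The cells could also be ranked by the UMIs that 8 of the 9 higher genes took per 10000 UMIs of a cell, with Saa3 left out. This set was chosen by the same contrast, so the values only describe where the UMIs lay. In Rspo+BMP2/4 the lowest, median and highest cell had 0, 1.07 and 15.5 in mouse 1 and 0, 1.58 and 9.19 in mouse 2. With RARi they had 0, 6.45 and 37.9 in mouse 1 and 0, 4.06 and 45.8 in mouse 2. The RARi medians were thus above those of the other culture in both mice. In B-27 the medians were 25.4 and 34.1 and the highest cells reached 77.6 and 94.5.

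**Figure D2:**
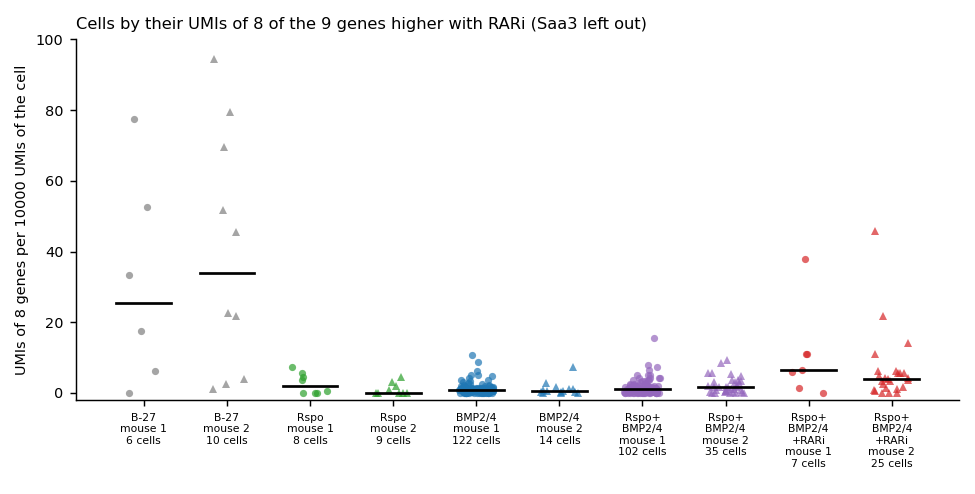
Each point is a cell and its height is the number of UMIs from 8 genes higher with RARi per 10000 UMIs of that cell, by culture and mouse, with the median as a line. RARi cells range up to 37.9 and 45.8 with medians of 6.45 and 4.06, between the Rspo+BMP2/4 cells (medians 1.07 and 1.58) and the B-27 cells (medians 25.4 and 34.1).

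The levels of the called genes in the B-27 culture, which lacked atRA, were then set beside those with RARi. The B-27 sums held only 6 and 10 cells, and the deepest cell gave 41.2% and 37.8% of their UMIs. Abca12 was at 914 and 942 CPM in B-27, about an order of magnitude above the RARi sums at 93.1 and 110.4 CPM. Dsg1b was at 250 and 425 CPM, Chl1 at 372 and 454 CPM, and Plxdc2 at 334 and 332 CPM in B-27. Antxr1, at 65.9 and 63.4 CPM in B-27, lay below its RARi levels of 143 and 66.8 CPM. On the lower side Padi1 was at 9.42 and 4.88 CPM and Glis3 at 61.2 and 87.8 CPM in B-27. S100a7a, at 84.8 and 19.5 CPM in B-27, stood above both RARi sums.

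To describe the RARi contrast over genes chosen outside it, B-27 was compared with BMP2/4 in a fit that held none of the 4 sums above. These media differ in atRA, PKCi and BMP2/4 together, and this comparison was added after seeing the data. It rests on B-27 sums of 6 and 10 cells. At adjusted p under 0.01 and a log2 fold change beyond 1, 531 of 4046 genes were higher in B-27 (13.1%) and 98 were lower (2.42%). Of the 531 genes, 424 had a positive log2 fold change with RARi (79.8%), against 49.7% of all genes tested. Their median log2 fold change with RARi was 0.44, with 0.80 in mouse 1 and 0.13 in mouse 2, against -0.00235 over all genes. Both RARi sums lay above both Rspo+BMP2/4 sums in 233 of the 531 and below both in 32. Of all genes tested, 20.5% lay above and 20.8% below.

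Of the 98 genes lower in B-27, 89 had a negative log2 fold change with RARi (90.8%), against 50.2% of all genes. Their median was -0.68, with -1.38 in mouse 1 and -0.40 in mouse 2. Both RARi sums lay below both others in 63 of the 98 and above both in 3, against 20.8% and 20.5% of all genes tested. At adjusted p under 0.05, 8 of the 531 were called higher and 1 of the 98 lower, against 0.14% and 0.0467% of all genes tested. The list of 531 thus held 8 of the 9 genes called higher, and most of its members did not pass. Among the abundant members, Dsg3, a basal and suprabasal desmoglein, was at 318 and 385 CPM without and 869 and 645 CPM with RARi. Pmepa1, an inhibitor of TGFβ signaling, was at 1350 and 1925 CPM without and 428 and 925 CPM with RARi. These 2 genes were chosen after their values were seen. Among the 8 most abundant members of each list, 1 went against it. It was Samd12 on the higher list, with a log2 fold change of -0.14 with RARi, and Cux1 on the lower list, with 0.61.

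The RARi sum of mouse 1, with 7 cells, moved furthest toward B-27 on both lists. It also had the lowest share of ribosomal protein UMIs, 12.4%, near the 12.3% and 16.3% of B-27, whereas the other 3 sums had 19.4% to 22.7%. The list of 98 held 0 ribosomal protein genes and the list of 531 held 1. Without the RARi sum of mouse 1 the medians were 0.21 and -0.35, and without that of mouse 2 they were 0.66 and -1.49. Without the leading cells the medians were 0.21 and -0.52. The part of the ribosomal share in these medians was not tested.

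**Figure D3:**
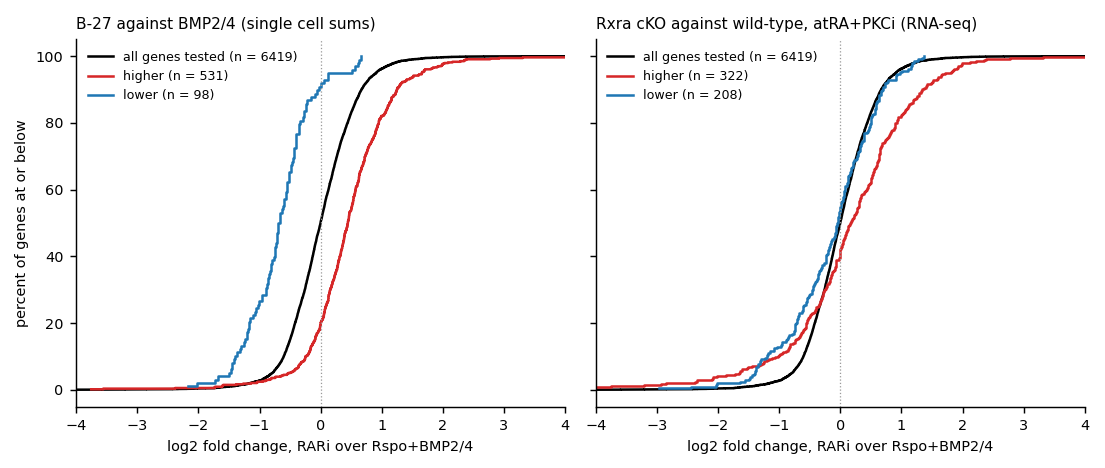
Percent of genes at or below each log2 fold change of RARi over Rspo+BMP2/4, for all 6419 genes tested (black) and for genes higher (red) or lower (blue) in 2 other contrasts. Genes higher in B-27 than in BMP2/4 (n = 531) lie to the right and genes lower (n = 98) to the left of all genes, and the lists from RNA-seq libraries labelled Rxra cKO (n = 322 and 208) lie closer to them.

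RNA-seq libraries of other HFSC cultures were labelled as a knockout of Rxra, the partner of RAR. The libraries labelled Rxra conditional knockout (cKO) came from floxed alleles and a tamoxifen-inducible Cre driven by Sox9. They were compared with wild-type libraries, both grown in atRA+PKCi without Rspo or BMP2/4. Each genotype had 2 replicate libraries from mice of age P55. Their titles number the replicates and do not say whether each was a separate mouse. The errors and p-values of this comparison thus measure the spread between replicate libraries. Rxra itself was at 148 and 145 CPM in the libraries labelled cKO and at 147 and 143 CPM in the wild-type libraries. Its log2 difference was 0.01 ± 0.09 (edgeR adjusted p = 0.927), so that the level of the targeted gene did not show the deletion. Counts over a whole gene do not resolve a deleted exon, so the labels were not checked by this value, and each direction below rests on them. edgeR called 675 of 15965 genes lower (4.23%) and 1406 higher (8.81%) in the libraries labelled cKO. All 12 genes were measured in these libraries. Of the 9 genes higher with RARi, 8 had a positive log2 fold change in the libraries labelled cKO and 4 were called higher. Of the 3 genes lower with RARi, all 3 had a negative log2 fold change and 2 were called lower.

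In the libraries labelled cKO Abca12 was at 40.3 and 38.2 CPM, and in the wild-type libraries at 9.24 and 10.6 CPM (log2 difference 1.99 ± 0.15, edgeR adjusted p = 1.36e-05). Dsg1b was at 54.9 and 46.5 CPM against 1.64 and 1.62 CPM, a log2 fold change of 4.96 ± 0.16 (edgeR adjusted p = 1.49e-07). Saa3 was at 40.3 and 40.9 CPM against 0.545 and 0.792 CPM, and Plxdc2 at 37.8 and 37.5 CPM against 13.2 and 13.5 CPM. Padi1 was at 4.64 and 4.14 CPM against 31.7 and 28.6 CPM, and Glis3 at 4.61 and 5.36 CPM against 35.7 and 34.7 CPM. Chl1 went the other way, with a log2 fold change of -0.60 ± 0.09 in the libraries labelled cKO against 2.92 with RARi. S100a7a did not differ beyond its error there, at -0.07 ± 0.16.

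Over the whole lists the shift was small. Of the 675 genes lower in the libraries labelled cKO, 208 were tested in the RARi contrast, with a median log2 fold change of -0.04 and 113 negative. Of the 1406 higher genes, 322 were tested, with a median of 0.16 and 186 positive (57.8%). The per-mouse medians of the second list were -0.18 in mouse 1 and 0.11 in mouse 2, so that the mice differed in sign.

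Targets of retinoid signaling were described next, as the readout of the inhibitor itself. The best known sites are direct repeats of the half-site AGGTCA, with AGTTCA or GGTTCA or GGGTCA as variants, and with 1, 2 or 5 bases between. These were searched on both strands of RefSeq promoters (GRCm38.p6, from 250 bases before to 50 after a start). Of 32851 promoters, 193 held one (0.588%). Of the 13 genes of the retinoid target list, 9 had a promoter in the table and 2 of them held a repeat, Cyp26a1 and Rarb. Among the 12 called genes 7 had a promoter and none held a repeat, which says only that these letters are not in that window.

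The 2 promoter stretches are shown because they hold the only repeats found in these lists, and the half-sites are in capitals. The stretch of Cyp26a1 is chr19:37697756-37697812 on the plus strand, where the repeat is read on the opposite strand. The stretch of Rarb is chr14:16575493-16575549 on the minus strand.
Cyp26a1: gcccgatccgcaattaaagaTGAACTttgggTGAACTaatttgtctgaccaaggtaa
Rarb: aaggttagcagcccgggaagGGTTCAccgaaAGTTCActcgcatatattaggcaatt
Neither gene was usable as a readout in these cells. Cyp26a1, which degrades retinoic acid, had 0 UMIs in the 4 sums, and Rarb, a receptor that retinoic acid induces, had 1 UMI in each culture, in mouse 2 both times.

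Of 13 retinoid target genes, 6 were tested, 0 passed at adjusted p under 0.05, and all 6 had a negative log2 fold change. The median was -1.35, with -0.67 in mouse 1 and -0.99 in mouse 2, against -0.00235 for all genes. The share of UMIs taken by the whole list was not lower in both mice. In mouse 1 it was 0.0942% (exact 95% interval 0.0906% to 0.0978%) in Rspo+BMP2/4 and 0.09995% (0.0840% to 0.118%) with RARi. In mouse 2 it was 0.102% (0.0961% to 0.108%) and 0.0564% (0.0511% to 0.0621%), so the lower share was seen in mouse 2 alone. In 5 of the 6 both RARi sums lay below both others, where 20.8% of all genes did. The genes that passed the filter had to be detected somewhere, so this count is a description.

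Dhrs3, a reductase that converts retinal back to retinol, was the clearest of them, with 170 and 189 CPM in Rspo+BMP2/4 and 118 and 49.1 CPM with RARi. Its log2 difference was -1.31 ± 0.40 (edgeR adjusted p = 0.304). Cyp26b1, the retinoic acid hydroxylase expressed in skin, had 57 and 18 UMIs without and 2 and 1 UMIs with the inhibitor. That was 22.3 and 16.2 CPM against 12.4 and 1.36 CPM. With the UMIs of both mice pooled, the ratio of RARi to Rspo+BMP2/4 was 0.178 (exact 95% interval 0.036 to 0.542, counting error only). Mouse 1 gave most UMIs of Rspo+BMP2/4 and mouse 2 most UMIs of RARi, so this ratio does not separate mouse from inhibitor. For Cyp26b1 edgeR gave an adjusted p = 0.462. Both genes had lower CPM with RARi in both mice, but for Cyp26b1 the value of mouse 1 rests on 2 UMIs. Neither gene passed the test.

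Nrip1, a nuclear receptor corepressor that retinoic acid induces, was at 468 and 468 CPM without and 403 and 221 CPM with RARi (log2 difference -0.63 ± 0.39, edgeR adjusted p = 0.773). Crabp2, which carries retinoic acid to the nucleus, was at 23.5 and 8.08 CPM against 6.21 and 4.09 CPM. Stra6, the membrane receptor for retinol uptake, overlapped between cultures, at 329 and 307 CPM against 323 and 277 CPM (log2 difference -0.10 ± 0.38). In B-27 Dhrs3 was at 28.3 and 19.5 CPM and Stra6 at 42.4 and 43.9 CPM, below every sum with atRA. In the libraries labelled Rxra cKO, whose Rxra level did not differ from wild-type, Cyp26b1 fell by 2.36 and Dhrs3 by 1.15 on the log2 scale.

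No receptor or carrier passed the test. Rarg, the main RAR of keratinocytes, was at 45.02 and 57.5 CPM against 37.2 and 40.9 CPM and was named after its values were seen. Rxra was at 33.7 and 25.1 CPM against 99.3 and 36.8 CPM (log2 difference 0.86 ± 0.43, edgeR adjusted p = 0.712). Fabp5, an abundant fatty acid binding protein that also carries retinoic acid, was at 6371 and 3687 CPM against 5884 and 6496 CPM. Among the 7 tested genes of this list 0 passed at adjusted p under 0.05.

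**Figure D4:**
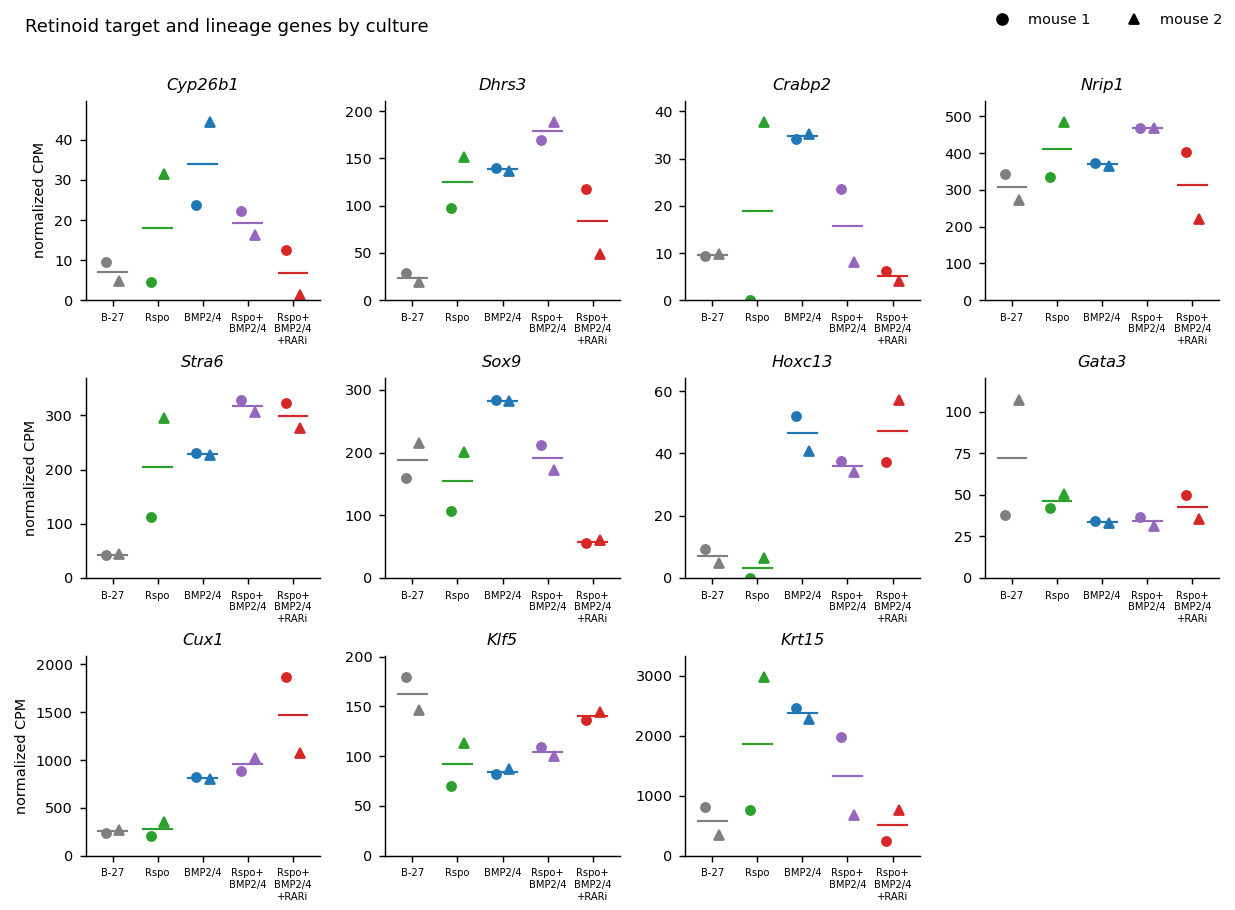
Normalized CPM of 5 retinoid target genes and 6 lineage genes in 5 cultures of mouse 1 (circles) and mouse 2 (triangles), with the mean of the 2 mice as a line. Dhrs3 and Sox9 are lower with RARi than with Rspo+BMP2/4 in both mice, while Hoxc13 and Cux1 lie above the B-27 and Rspo cultures in both mice and Stra6 overlaps.

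Whether RARi altered the lineage factors was the question the labels pose for hair fates. Hoxc13, the homeobox factor of the hair shaft, was at 37.6 and 34.1 CPM in Rspo+BMP2/4 and 37.2 and 57.2 CPM with RARi. The log2 difference was 0.51 ± 0.36 with a 95% interval from -0.24 to 1.27 (edgeR adjusted p = 0.773). Gata3, the factor of the IRS, was at 36.8 and 31.4 CPM against 49.7 and 35.4 CPM, a log2 difference of 0.19 ± 0.41 with an interval from -0.67 to 1.05. Both intervals include 0 and reach above 1 on the log2 scale. Hoxc13 was at 9.42 and 4.88 CPM in B-27 and 0 and 6.30 CPM in Rspo, and at 52.1 and 40.8 CPM in BMP2/4, so that its RARi levels lay with the cultures that held BMP2/4.

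Cux1, a factor of hair matrix progenitors, was at 890 and 1024 CPM against 1862 and 1076 CPM (log2 difference 0.61 ± 0.40, edgeR adjusted p = 0.773). Keratins of the hair shaft and IRS were at or near the limit of detection at this depth. Of 16 hair shaft keratins listed, 15 were in the count matrices, and they took 9, 5, 1 and 1 UMIs in the 4 sums. Krt85, a hair shaft keratin, was not found in the matrices under that symbol. Of the IRS keratins Krt27 had 1, 0, 0 and 2 UMIs and Krt28 had 1, 0, 0 and 1 UMIs, and Krt25, Krt26, Krt71, Krt72 and Krt73 had 0 UMIs. Tchh, the trichohyalin of IRS and medulla, had 23 and 9 UMIs without and 11 and 16 UMIs with RARi. Tgm3, a transglutaminase of hair and epidermis, was at 9.40 and 4.49 CPM against 24.8 and 35.4 CPM and did not pass (log2 difference 2.09 ± 0.57, edgeR adjusted p = 0.242). Tgm3 was named after its values were seen. On the fixed IRS list 5 genes were tested, and 4 of them, with Tgm3, had a positive value. The other was Padi1, which was lower with RARi at -2.04. It was the only member called at adjusted p under 0.05, where 0.0467% of all genes tested were called lower.

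The WNT effectors Lef1, Tcf7 and Tcf7l1 were too low to test. Lef1 had 20 and 3 UMIs without and 3 and 7 UMIs with RARi, and Tcf7 had 34 and 21 UMIs against 0 and 8. Tcf7l2 was at 379 and 517 CPM against 912 and 484 CPM (log2 difference 0.62 ± 0.45, edgeR adjusted p = 0.773), and 51.7% of its UMIs in the RARi sum of mouse 1 came from 1 cell. The R-spondin receptor Lgr5 had 15 and 1 UMIs against 0 and 0 UMIs. Lgr6, its relative, was at 213 and 257 CPM against 199 and 101 CPM. Axin2, the feedback target of WNT, was at 48.2 and 26.9 CPM against 24.8 and 28.6 CPM. Among the 6 WNT targets tested, 0 passed, and their median log2 fold change was -0.25.

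The BMP targets were also uncalled. Id1, a direct SMAD target that blocks differentiation factors, was at 623 and 499 CPM against 242 and 501 CPM (log2 difference -0.56 ± 0.42, edgeR adjusted p = 0.773). Id3 was at 387 and 311 CPM against 93.1 and 309 CPM, and the inhibitory SMAD gene Smad7 was at 174 and 211 CPM against 62.1 and 132 CPM. In Id1 and Id3 the level was clearly lower in mouse 1 alone. The 4 BMP targets tested had a median of -0.62, with -1.42 in mouse 1 and -0.04 in mouse 2.

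Stem cell and wound genes held mostly negative values with RARi and no call at adjusted p under 0.05. Of 9 HFSC markers tested, 8 had a negative value, with a median of -0.37. Krt15, a keratin of the bulge, was at 1983 and 672 CPM against 248 and 764 CPM, so that the mice moved in opposite directions. Id2 was at 457 and 438 CPM against 68.3 and 233 CPM (log2 difference -1.45 ± 0.42, edgeR adjusted p = 0.288). Of 13 wound response genes tested, 11 had a negative value, with a median of -0.73, of -1.34 in mouse 1 and of -0.27 in mouse 2. S100a6, a calcium-binding protein of activated keratinocytes, was at 15780 and 11260 CPM against 3544 and 9383 CPM (edgeR adjusted p = 0.669). S100a8, an alarmin subunit, was at 582 and 533 CPM against 230 and 382 CPM. In S100a6 and S100a8 the RARi sum of mouse 1 was the lowest of the 4.

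Of 22 epidermal differentiation genes tested, 13 had a positive value and 1, Dsg1b, passed at adjusted p under 0.05, with a median of 0.16 over the list. Klf5, an epidermal factor that marks lineage plasticity in wounds, was at 109 and 101 CPM against 137 and 144 CPM (log2 difference 0.43 ± 0.33, edgeR adjusted p = 0.773). Grhl1, a factor that drives desmosomal cadherins, was at 33.7 and 43.1 CPM against 155 and 72.2 CPM (log2 difference 1.41 ± 0.38, edgeR adjusted p = 0.238). Krt10, the early suprabasal keratin, was at 33.3 and 23.3 CPM against 12.4 and 25.9 CPM. Ivl, a cornified envelope protein, was at 28.6 and 23.3 CPM against 6.21 and 28.6 CPM. Grhl1 and Ivl were named after their values were seen.

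Among companion layer and outer root sheath genes none passed the test. Krt16 was at 730 and 646 CPM against 1651 and 1297 CPM (log2 difference 1.10 ± 0.49, edgeR adjusted p = 0.663), and 68.0% of its UMIs in mouse 1 came from 1 cell. Krt6a was at 726 and 698 CPM against 857 and 927 CPM. The list of 12 genes took 0.224% and 0.251% of UMIs in Rspo+BMP2/4 and 0.450% and 0.356% with RARi. In the median cell the share was 0.2205% and 0.286% against 0.322% and 0.309%, so it differed little in mouse 2. Of the 8 genes tested, 6 had a positive value and 2 a negative one. Sox9 is on this list and was lower, at -1.71, and Krt75, also on it, had 0 UMIs in the 4 sums. Counting intervals were narrow, from 0.416% to 0.487% for the RARi sum of mouse 1, but they do not cover the spread between mice.

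No cell cycle gene passed the test. Mki67 was at 16.1 and 29.6 CPM without and 6.21 and 42.2 CPM with RARi. Top2a, the topoisomerase of dividing cells, was at 67.7 and 127 CPM against 18.6 and 151 CPM. In mouse 2, 77.5% of its RARi UMIs came from 1 cell. The S phase genes took 0.0263% and 0.0277% of UMIs against 0.0338% and 0.0299%. The 8 S phase genes tested had a median of -0.14 and the 5 G2/M genes one of 0.13. The 14 stress genes tested, which include Fos and Junb, had a median of 0.10. For epidermal, S phase, G2/M and stress genes and for 4 other hair shaft genes (median 0.31), the fit and at least 1 mouse differed in sign.

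**Figure D5:**
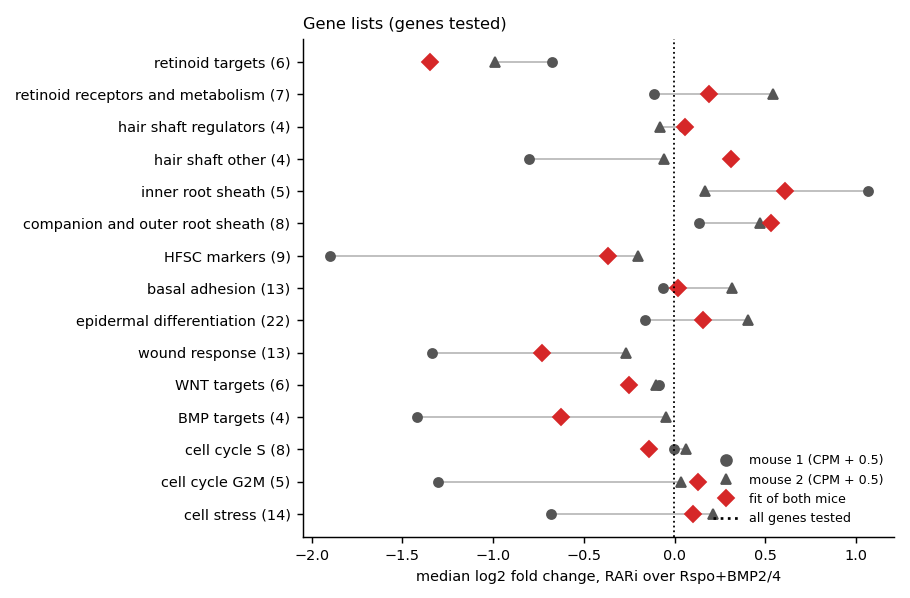
Median log2 fold change of RARi over Rspo+BMP2/4 for each list with at least 3 genes tested, from the fit (diamonds) and in mouse 1 (circles) and mouse 2 (triangles), with the median of all genes as a dotted line. Among the fitted medians the retinoid targets lie lowest, at -1.35, while in mouse 1 the HFSC markers (-1.90), BMP targets (-1.42) and wound response genes (-1.34) lie below them (-0.67).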

How the data were processed

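The authors deposited UMI counts per gene and barcode of called cells, made with Cell Ranger (7.0.0 per the file headers, 7.0.1 in the submitters' processing notes) on mm10, with hashtag counts in the same matrices. For RNA-seq, the authors deposited estimated counts (salmon), which were rounded here. Their normalized table and the back skin matrices were not used here. No doublet caller was run. The hashtag share removes doublets across cultures, not within one. Ambient RNA was not removed.

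UMIs were summed per mouse and culture and fitted by edgeR's quasi-likelihood test (edgeR 4.0.16 under R 4.3.3), after TMM and filterByExpr, with Benjamini-Hochberg adjustment, over 10 sums of 5 cultures with at least 5 cells per mouse outside the contrast, leaving 5 residual degrees of freedom. Dispersion was 0.0536. The mice pair the sums by design, but their deviations correlated by -0.0574 over 6419 genes, and the fit had no block for the mouse, since the study's methods name none. CPM are normalized by TMM. Mice differed beyond counting error (mean chi-square per gene 6.99 and 8.06). P-values measure only the spread between these mice, and for RNA-seq only the spread between replicate libraries. With 2 mice per culture, an exact permutation test cannot reach 0.05. List medians per mouse used CPM + 0.5. Intervals are exact 95% ones and cover counting error only. DESeq2 1.42.0, RLE factors, no filter, other cell and hashtag limits (HTODemux in Seurat 5.3.0), thinning to 3000 UMIs and leaving out each sum were alternatives. The fit was also run on simulated sums that gave all genes the dispersion of 0.0536 and held no leading cells. That run therefore does not cover the uneven spread over genes and cells seen here. Promoters were from RefSeq.

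Named genes were those the paper names for these fates, all retinoid targets, the 4 most abundant members of each other list, and up to 5 genes per direction of lowest p without overlap and with at least 50 CPM in a culture. The members and lists were chosen with earlier results of these data known. Not every gene that this rule takes is reported here.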

Additional observations from a re-analysis of the deposited data

How the results depend on the processing

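By adjusted p under 0.01 and a log2 fold change beyond 1, against 0 genes each way, higher and lower calls numbered 9 and 3 with DESeq2, 13 and 10 with no filter on low counts, 4 and 1 with the replicate block (the mouse as a term, which pairs the sums), and 3 and 1 with at least 1000 genes and under 5% mitochondrial UMIs. Thinning to 3000 UMIs called 1 higher. Leaving out 1 sum gave 0 to 4 higher and 0 to 0 lower.

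By adjusted p under 0.05, against 9 higher and 3 lower, DESeq2 called 5 lower, no filter 37 and 17, the stricter cell limits 26 and 83 (from RARi sums of 1 and 2 cells), and mitochondrial UMIs up to 20% 1 and 1. A fit of only the 4 sums, HTODemux, and sums without the leading cells called 0 and 0. A hashtag share of 90% called 2 higher and thinning 1. Leaving out 1 sum gave 0 to 82 higher and 0 to 109 lower: 82 and 109 without RARi mouse 2, 5 and 0 without RARi mouse 1, 1 and 1 without Rspo+BMP2/4 mouse 1, and 0 and 0 without Rspo+BMP2/4 mouse 2. The cause was not tested.

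Under the stricter cell limits the RARi median of genes higher in B-27 reversed to -1.37, and Cux1 (-3.71), Krt14 (1.56) and Trps1 (-6.93) passed with the opposite sign. The other alternatives kept both B-27 medians on their side of 0, and leaving out 1 sum gave 0.21 to 0.66 and -1.49 to -0.35. RNA-seq lists at adjusted p under 0.05 gave medians of 0.02 and 0.02, so the lower list changed sign, and the RNA-seq replicate block gave 0.17 and -0.04. The retinoid target median stayed negative under all alternatives that gave it, from -1.47 to -0.49. Depth limits the RARi arm in the files analysed here: 32 cells in all, 7 of them in mouse 1, so a gene of low level was often not testable.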
